A study of Rattus norvegicus with 44 samples.

Results

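Complement and coagulation are the plasma protease cascades that the liver makes and secretes, and 42 genes of these cascades were followed in H4-II-E-C3 cells, a line from a rat hepatoma, after 24 h with nickel, chromium or cadmium. The list held complement components from C1r to C9 with their regulators, clotting factors, the 3 fibrinogen chains, natural anticoagulants, plasminogen and the inhibitors of fibrinolysis. A member was counted where a probe set of the array named it and no other member, which gave 45 of 31099 probe sets and 37 of 42 genes. Of these, 36 genes had a probe set naming them alone, while kininogen 1 (Kng1) shared its single probe set with 2 related kininogen genes. C2 and Cfb were named together on 4 probe sets, and F7, F11 and F13b were named on none. Of the 36 genes, 27 passed the filter on low values and were tested, and 9 were below it.

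In complement, recognition proteins such as mannose-binding lectins (Mbl1, Mbl2) switch on serine proteases (C1r, C1s, Masp1, Masp2), which lead to cleavage of C3 and then of C5. Products of C5 cleavage start assembly of C6, C8 and C9 into a pore in the target membrane, and inhibitors such as C4bpa, Cfi and Serping1 hold the cascade in check. In coagulation, a chain of proteases and cofactors ends in thrombin (from F2), which turns fibrinogen (Fga, Fgb, Fgg) into fibrin, and plasmin (from Plg) dissolves it. Hepatocytes are the main source of most of these proteins, which makes their transcripts markers of what a liver cell exports.

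Nickel was given as NiCl2 at 40, 140 and 400 µM, chromium as Na2Cr2O7 at 0.275, 1 and 10 µM, and cadmium as CdCl2 at 0.2 µM, at 0.55 µM and at 1.2 µM, in medium without serum. Controls were unexposed cells, with 2 control arrays in each of 4 biological replicates and 1 array per exposure and replicate, 44 arrays in all. The concentrations were chosen by the study from viability assays, and the high ones caused substantial cell death, which limits the exposed cultures as a model of intact liver cells. Levels are log2 values of RMA-summarised probe set intensity, so a difference of 1 is a doubling, and each probe set was compared only with itself across arrays. In bulk RNA such as this, fewer cells of a type and less RNA per cell cannot be told apart.

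The condition of part of the arrays is in doubt, and every result below depends on how it was settled. Sample labels and the order of the sample titles place 22 arrays in the same condition and 22 in another. With titles taken in series order and the 4 titles of repeated microarrays moved to the end, the mean changes of 992 probe sets in 9 conditions were within 7.5e-06 (log2) of the table of means that came with these arrays, at a median distance of 2.95e-06. Read from the labels, they lay at a median distance of 0.164, up to 4.32. That table was made from these same arrays and is no independent check. Conditions here follow the title order. With labels as given, 0 members were called in any comparison with controls. The 22 arrays on which both readings coincide include those of 400 µM nickel and 10 µM chromium in replicates 1 and 2. They hold only 1 array of 1.2 µM cadmium and 1 of 0.55 µM. Of the 22, the exposed arrays and the control arrays of replicates 1 and 2 were fitted as an alternative. Values from that fit stand beside the members whose call at a high concentration they change. Arrays of 0.275 µM chromium in replicate 4 (0.9047), 400 µM nickel in replicates 1 (0.9029) and 4 (0.9049) and 0.55 µM cadmium in replicate 2 (0.9319) had the lowest median R2 with their own condition over all tested probe sets, and 3 of these 4 are repeated microarrays.

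Hepatocyte genes were abundant in the controls, with mean log2 levels of 14.5 for albumin (Alb), 13.2 for fetuin (Ahsg) and 11.9 for transthyretin (Ttr), while apolipoprotein A1 (Apoa1) lay at 5.34, under the filter. Of 4 endothelial markers with a probe set, 0 passed the filter. Of 5 macrophage markers, 1 (Cd14) passed, and of 5 fibroblast markers, 1 (Acta2) passed. The mean level over the macrophage list lay between 4.89 and 5.20 in controls and between 5.16 and 5.25 at 1.2 µM cadmium, and the defining marker Ptprc did not exceed 5.00 on any array. Averaged over the 8 hepatocyte markers with a probe set, the level ran from 10.7 to 10.9 in controls, from 9.45 to 10.8 at 400 µM nickel, from 10.0 to 10.3 at 10 µM chromium and from 10.4 to 10.8 at 1.2 µM cadmium. Of 7 tested hepatocyte markers 4 fell with each metal at these concentrations and 1 (Ahsg) rose with nickel, with median log2 changes of -0.66, -0.57 and -0.38 for nickel, chromium and cadmium. Cd14 rose by 1.15 on the log2 scale with cadmium and 0.43 with chromium. The part of these markers in the results was not tested.

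At the highest concentration of every metal, most of the tested complement and coagulation genes were lower than in controls. With 10 µM chromium 23 of 27 members fell and 2 rose at an adjusted p under 0.05, against 19.4% of all 15547 tested probe sets lower and 23.1% higher. With 400 µM nickel 21 members fell and 2 rose, against 16.6% lower and 23.4% higher. With 1.2 µM cadmium 19 fell and 1 rose, against 14% lower and 23.8% higher. The median log2 change of the 27 members was -0.71 with chromium, -0.75 with nickel and -0.48 with cadmium, where the median of all tested probe sets was 0.02, 0.02 and 0.04. All 4 exposed arrays lay below the lowest of the 8 control arrays for 20 members with chromium, 7 with nickel and 15 with cadmium, against 12.1%, 6.16% and 7.18% of all tested probe sets.

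Lower concentrations moved few members. At 40 µM nickel and at 0.275 µM chromium 0 members and 0% of all probe sets were called in either direction. At 140 µM nickel 0 members were called, against 2.54% of probe sets higher and 0.753% lower, and at 1 µM chromium 0 members, against 0.0193% higher and 0.0129% lower. At 0.2 µM cadmium 0 members were called, against 0.161% higher and 0.315% lower. These zeros come from limma, where 0, 7, 1, 8 and 3 members respectively had an unadjusted p under 0.05 at 40 µM nickel, 0.275 µM chromium, 140 µM nickel, 1 µM chromium and 0.2 µM cadmium. Of all 15547 tested probe sets, 595, 1441, 2909, 1279 and 1508 had one in the same order. At 0.55 µM cadmium 4 members (C5, C9, Cfi, Plg) fell and 3 (C3, C8g, F12) rose, against 2.27% lower and 8.37% higher. That count of 7 became 4 without replicate 1, 2 without replicate 3 and 3 without replicate 4. Only 1 array of 0.55 µM cadmium has 1 condition by both readings. In the fit of arrays with 1 condition by both readings, the log2 changes at 0.55 µM rest on it. They were -0.51 for C5, -1.14 for C9, -0.29 for Cfi and -0.81 for Plg. For C3, C8g and F12 they were 0.12, 0.08 and 0.14. For C8b, Fga, Proc and Serpind1, not called over all replicates, they were -0.51, -0.54, -0.47 and -0.62.

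**Figure D1:**
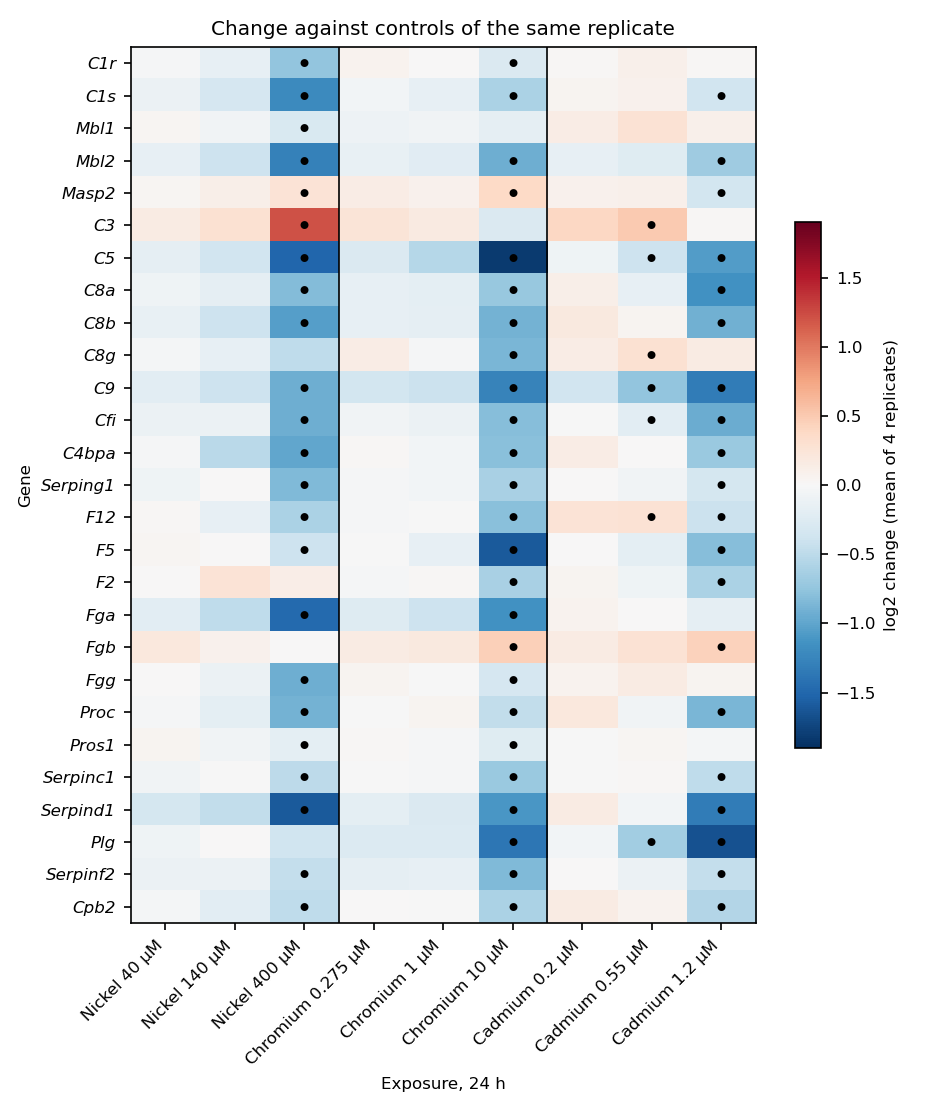
Colour gives the log2 change of the 27 tested members (rows, ordered by role) against controls in the 9 exposures (columns), and a dot marks an adjusted p under 0.05. Dots fill most of the columns for 400 µM nickel, 10 µM chromium and 1.2 µM cadmium and are absent from 5 of the other columns; C3 is red with nickel, and Fgb with chromium and cadmium.

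Nickel replicates were unequal. In replicates 1 and 2 the median difference of the 27 members from their own controls at 400 µM was -1.72 and -1.04, and in replicates 3 and 4 it was -0.19 and -0.07. With chromium at 10 µM the 4 medians lay between -0.81 and -0.64, and with cadmium at 1.2 µM between -0.63 and -0.28. Members were lower than the replicate's controls in 24, 25, 20 and 16 of 27 cases in nickel replicates 1 to 4. Of all tested probe sets 6.69%, 3.66%, 1.11% and 1.63% differed at least 2-fold in these replicates. Without replicate 1, 8 members fell with nickel, and without replicate 2, 6, while 20 and 19 fell without replicate 3 or 4. Without the replicate block the count was 15. The array of nickel at 400 µM in replicate 4 is one of the 4 repeated microarrays, and those of replicates 3 and 4 carry other conditions in their labels. Over all tested probe sets, each of these 2 arrays correlated best with the array of 140 µM nickel in its own replicate (R2 of 0.9725 and 0.974). In replicate 4 that array of 140 µM nickel is itself a repeated microarray. Each of the 4 repeated arrays had its highest R2 with another repeated array, also across metals, and the part of the rerun was not tested. On arrays with 1 condition by both readings, which for nickel are replicates 1 and 2, 23 members fell and 1 rose.

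**Figure D2:**
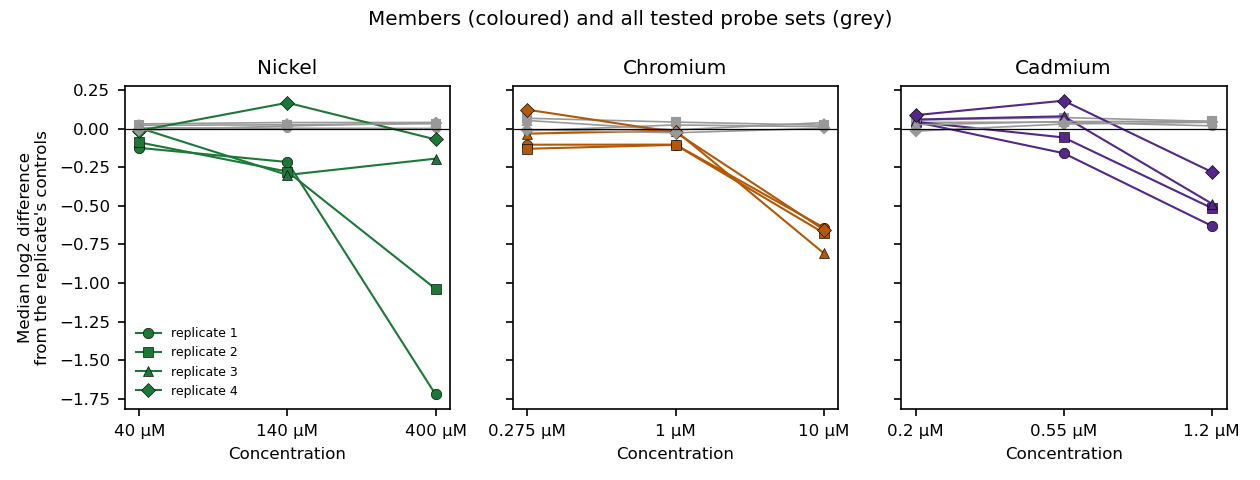
Each coloured line is 1 biological replicate and shows the median log2 difference of the 27 tested members from that replicate's controls at 3 concentrations (x axis, evenly spaced); grey lines show the median of all tested probe sets. The nickel lines part at 400 µM, from -1.72 to -0.07, while the chromium lines meet between -0.81 and -0.64.

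A stricter rule from the study's methods, an FDR of at most 0.001 across concentrations and at least 1.8-fold at 1 of them, kept 9 members for chromium (C5, C8b, C8g, C9, F5, Fga, Mbl2, Plg, Serpind1), against 2.64% of all probe sets. It kept 8 for cadmium (C5, C8a, C8b, C9, Cfi, Plg, Proc, Serpind1), against 1.5%, and 2 for nickel (C3, C8b), against 1.94%. C8b, a chain of the C8 component of the membrane pore, was the 1 member kept for all 3 metals. The nickel count was 0 when any replicate was left out and 8 on arrays with 1 condition by both readings. The chromium count was 5 without replicate 3, and the cadmium count was 4 without replicate 1 or replicate 3.

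C5, whose cleavage opens the terminal pathway, fell with every metal. Its log2 level in the 8 controls ran from 7.29 to 7.89 with a median of 7.62. With 10 µM chromium it was 6.04, 5.96, 5.54 and 5.52 in replicates 1 to 4, all below the controls. With 400 µM nickel it was 4.96, 5.91, 6.49 and 6.95, and with 1.2 µM cadmium 6.76, 6.62, 6.18 and 6.55, again with no overlap. The log2 changes were -1.82 ± 0.09 (SE; 3.52-fold lower, adjusted p = 4.9e-08) for chromium, -1.50 ± 0.27 (adjusted p = 0.00088) for nickel and -1.06 ± 0.07 (adjusted p = 4.6e-07) for cadmium.

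The other tested genes of the membrane pore fell with C5 for the most part. C9, which polymerises to form the pore itself, had a control range of 7.04 to 8.05 with a median of 7.85. Its level was 6.50, 6.46, 6.39 and 6.59 with 10 µM chromium and 6.50, 6.39, 6.44 and 6.37 with 1.2 µM cadmium, below all controls. With 400 µM nickel C9 was 5.97 and 6.51 in replicates 1 and 2 but 7.35 and 7.50 in replicates 3 and 4, inside the control range. Its changes were -1.27 ± 0.10 (SE) with chromium, -1.33 ± 0.10 with cadmium and -0.92 ± 0.29 with nickel, with adjusted p = 1.4e-06, 9.5e-07 and 0.021, and the last was lost without replicate 1 or 2.

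C8 is built from 3 chains, of which C8a and C8b come from neighbouring genes that together span 102.7 kb of rat chromosome 5 in GRCr8. C8a levels in controls ran from 9.07 to 9.67 with a median of 9.34, and were 8.28, 8.04, 8.05 and 8.36 with 1.2 µM cadmium, with no overlap. C8a changed by -1.14 ± 0.12 (SE) with cadmium (adjusted p = 1.4e-05), -0.71 ± 0.14 with chromium and -0.82 ± 0.26 with nickel, the last lost without replicate 1 or 2. C8b changed by -0.91 ± 0.14, -0.89 ± 0.11 and -1.04 ± 0.15 in the same order, and all 4 exposed arrays of each metal lay below its controls. C8g, the chain of another gene family, fell by 0.87 ± 0.12 with chromium but changed by 0.16 ± 0.08 with cadmium (adjusted p = 0.16) and -0.48 ± 0.30 with nickel (adjusted p = 0.22). Its nickel differences were -1.75 and -0.90 in replicates 1 and 2 and 0.21 and 0.53 in replicates 3 and 4, and on arrays with 1 condition by both readings C8g fell with nickel (-1.33, adjusted p = 0.0021).

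C3, the component on which the complement pathways converge, rose with nickel. In controls it ran from 8.46 to 9.58 with a median of 9.37, and the lowest value is that of the second control array of replicate 4. With 400 µM nickel it was 10.79, 10.79, 10.15 and 10.12 in replicates 1 to 4, above every control. The rise was 1.21 ± 0.17 on the log2 scale (SE; 2.31-fold, adjusted p = 0.00017), and within replicates it was 1.25, 1.26, 1.05 and 1.27. The value of replicate 4 is taken from a control mean that this lowest control array pulls down. How even the rise was across replicates therefore depends on that array. C3 also rose with 0.55 µM cadmium, by 0.50 ± 0.14 (adjusted p = 0.038). Within replicates 1 to 4 that rise was 0.12, 0.22, 0.64 and 1.02. The largest value, in replicate 4, is again taken from the control mean that holds the lowest control array. At the high concentrations of chromium and cadmium C3 changed by -0.27 ± 0.11 (adjusted p = 0.063) and 0.02 ± 0.14 (adjusted p = 0.93). On arrays with 1 condition by both readings it rose by 1.26 with nickel (adjusted p = 0.00012), and it fell there with chromium (-0.47, adjusted p = 0.0036). In the fit of such arrays, which holds 1 array of 1.2 µM cadmium, C3 changed by -0.39 at that concentration.

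**Figure D3:**
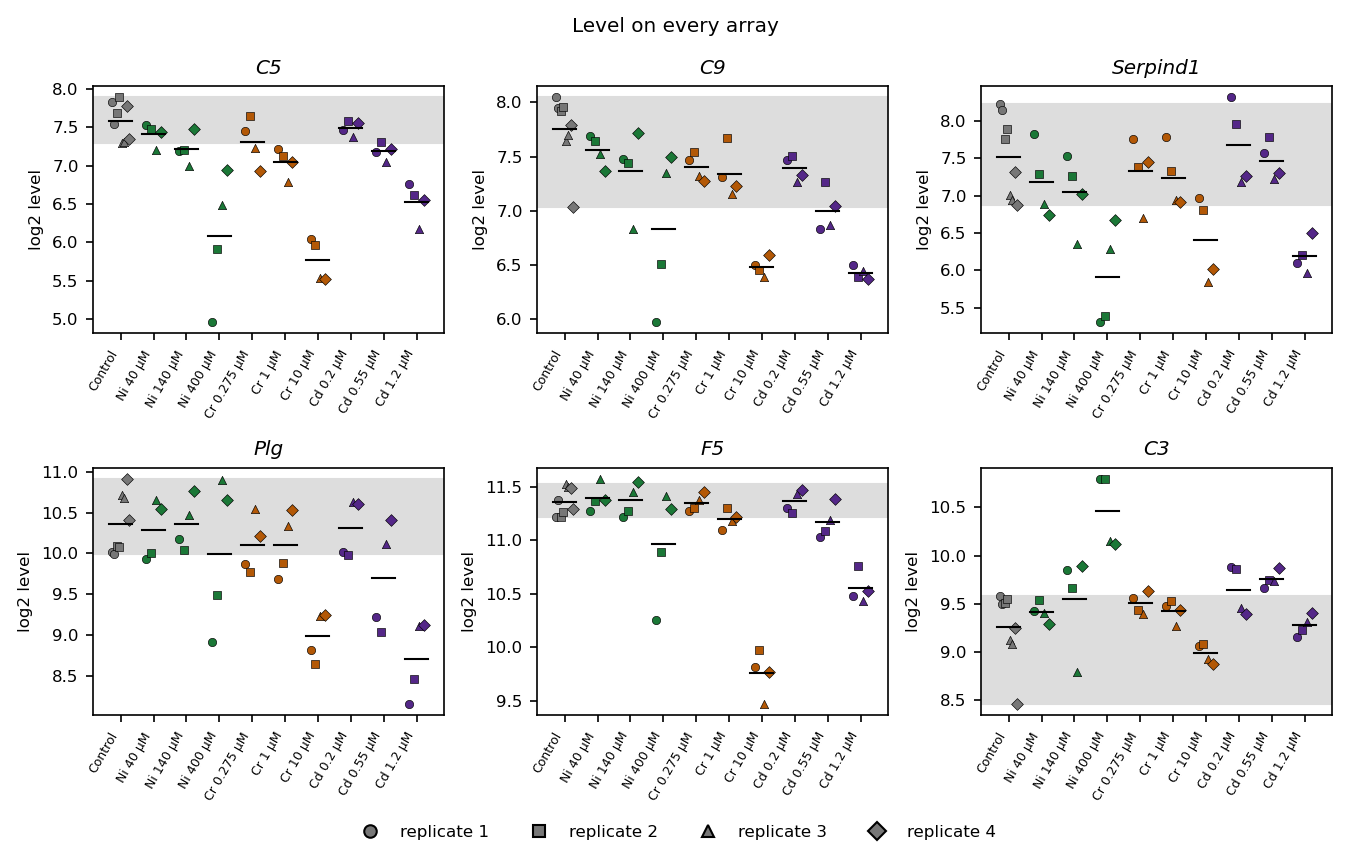
Log2 level (y axis) of 6 members on every array, by condition (x axis); shapes mark the replicate, bars the mean of a condition and the grey band the range of the 8 control arrays. C5 and Serpind1 lie below the band on all 4 arrays of 400 µM nickel, Plg and F5 do so in 2 replicates there and in all 4 with 10 µM chromium and 1.2 µM cadmium, and C3 lies above it with 400 µM nickel.

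C1s and C1r, the proteases of the classical pathway, act before C3. C1s changed by -1.21 ± 0.23 (SE) with nickel, -0.61 ± 0.07 with chromium and -0.36 ± 0.09 with cadmium, and C1r, its partner in the C1 complex, by -0.75 ± 0.14, -0.27 ± 0.07 and 0.02 ± 0.09, the last not called. In nickel replicates 1 and 2 C1s differed from its controls by -2.11 and -1.66, but in replicates 3 and 4 by -0.70 and -0.40, where chromium gave -0.79 and -0.63. Without the replicate block C1s was not called with chromium or cadmium. The chromium call of C1r was lost without the replicate block, without replicate 3 and on arrays with 1 condition by both readings (-0.20, adjusted p = 0.066). Mbl2, a lectin that binds microbial sugars, had a control range of 8.58 to 9.36 with a median of 8.86. With 400 µM nickel its levels were 6.74, 7.31, 8.13 and 8.22, below all controls, and its change was -1.28 ± 0.28 (adjusted p = 0.0032). It also fell with chromium (-0.93 ± 0.07) and cadmium (-0.67 ± 0.13), and a second Mbl2 probe set fell with all 3 metals, at -0.92, -0.59 and -0.48. Mbl1, the related lectin, was called with nickel alone, at -0.29 ± 0.08, and that call was lost without replicate 2, 3 or 4 and on arrays with 1 condition by both readings (-0.14, adjusted p = 0.27).

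Masp2, the protease that acts for these lectins, was 1 of 3 members that rose anywhere at a high concentration. In controls its level ran from 7.13 to 7.87 with a median of 7.52. It was 8.16, 7.96, 7.70 and 7.78 with 10 µM chromium and 7.84, 7.72, 7.82 and 7.75 with 400 µM nickel, overlapping the controls in both. Against the controls of each replicate it was higher in 4 of 4 replicates with either metal, by 0.37 ± 0.06 (SE, adjusted p = 0.00021) and 0.25 ± 0.08 (adjusted p = 0.022). The nickel call was lost without replicate 2, 3 or 4, without the repeated arrays, without the replicate block and on arrays with 1 condition by both readings (0.07, adjusted p = 0.51). With cadmium Masp2 fell by 0.34 ± 0.07 (adjusted p = 0.0018).

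All 3 tested complement regulators fell with all 3 metals. Cfi, the protease that inactivates C3b, changed by -0.93 ± 0.24 (SE) with nickel, -0.81 ± 0.10 with chromium and -0.94 ± 0.06 with cadmium. C4bpa, which binds C4b, changed by -0.99 ± 0.31, -0.79 ± 0.08 and -0.70 ± 0.10 in the same order. Serping1, the C1 inhibitor, changed by -0.84 ± 0.23, -0.62 ± 0.09 and -0.34 ± 0.06. The nickel calls of C4bpa and Serping1 were lost without replicate 1 or 2, and that of Cfi without replicate 2. That of C4bpa was also lost with only the second control array of each replicate.

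Among clotting factors, F5, the cofactor that speeds thrombin formation, showed the largest fall with chromium. Its control range was narrow, from 11.22 to 11.52 with a median of 11.33. With 10 µM chromium it was 9.82, 9.97, 9.47 and 9.77, and with 1.2 µM cadmium 10.48, 10.76, 10.43 and 10.53, both below all controls. The changes were -1.60 ± 0.10 (SE; 3.03-fold lower, adjusted p = 1.4e-07) and -0.81 ± 0.09 (adjusted p = 1.5e-05), and with nickel -0.39 ± 0.14 (adjusted p = 0.033), a call lost without replicate 1 or 2. F2, the precursor of thrombin, fell with chromium (-0.62 ± 0.06) and cadmium (-0.60 ± 0.06) and changed by 0.12 ± 0.17 with nickel (adjusted p = 0.60). F12, the protease of the contact system, fell with nickel, chromium and cadmium, at -0.60 ± 0.19, -0.79 ± 0.09 and -0.41 ± 0.07, and rose by 0.28 ± 0.07 at 0.55 µM cadmium. Its nickel call was lost without replicate 1 or 2, without the replicate block and with only the second control array of each replicate. The call of F12 at 1.2 µM cadmium and the nickel call of F5 were also lost without the replicate block.

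The 3 fibrinogen chains did not move together. Their genes lie side by side in 47.9 kb of rat chromosome 2 (GRCr8), and their products assemble in equal number. Fga ran from 7.91 to 8.76 in controls with a median of 8.51. With 10 µM chromium it was 7.001, 7.18, 7.50 and 7.52, below all controls, and with 400 µM nickel it was 5.23 and 6.60 in replicates 1 and 2 but 7.95 and 8.13 in replicates 3 and 4, inside the control range. The change was -1.15 ± 0.12 (SE, adjusted p = 7e-06) with chromium and -1.47 ± 0.41 (adjusted p = 0.012) with nickel, where it was lost without replicate 1 (adjusted p = 0.082) or replicate 2 (adjusted p = 0.1). With cadmium it changed by -0.17 ± 0.14 (adjusted p = 0.37). In the fit of arrays with 1 condition by both readings, which holds 1 array of 1.2 µM cadmium, it changed by -0.36.

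Fgb, in contrast, ran from 9.43 to 10.13 in controls with a median of 9.92 and was 10.06, 10.16, 10.57 and 10.61 with 10 µM chromium and 10.16, 10.13, 10.45 and 10.57 with 1.2 µM cadmium. It rose by 0.45 ± 0.12 (SE, adjusted p = 0.0059) with chromium and 0.43 ± 0.12 (adjusted p = 0.015) with cadmium. Within replicates the chromium rise was 0.14, 0.04, 0.75 and 0.89, larger in replicates 3 and 4, and on the arrays of replicates 1 and 2 it was 0.09 (adjusted p = 0.39). The chromium call was lost without replicate 3, and the cadmium call without replicate 3 or 4. With nickel Fgb was -0.98 and -0.41 in replicates 1 and 2 and 0.60 and 0.84 in replicates 3 and 4, a mean of 0.01 ± 0.25. On arrays with 1 condition by both readings, Fgb fell with nickel by 0.69 (adjusted p = 0.0051). Fgg fell with chromium (-0.32 ± 0.09) and nickel (-0.92 ± 0.31) and changed by 0.05 ± 0.09 with cadmium (adjusted p = 0.71), and both its calls were lost without replicate 1 or 2.

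**Figure D4:**
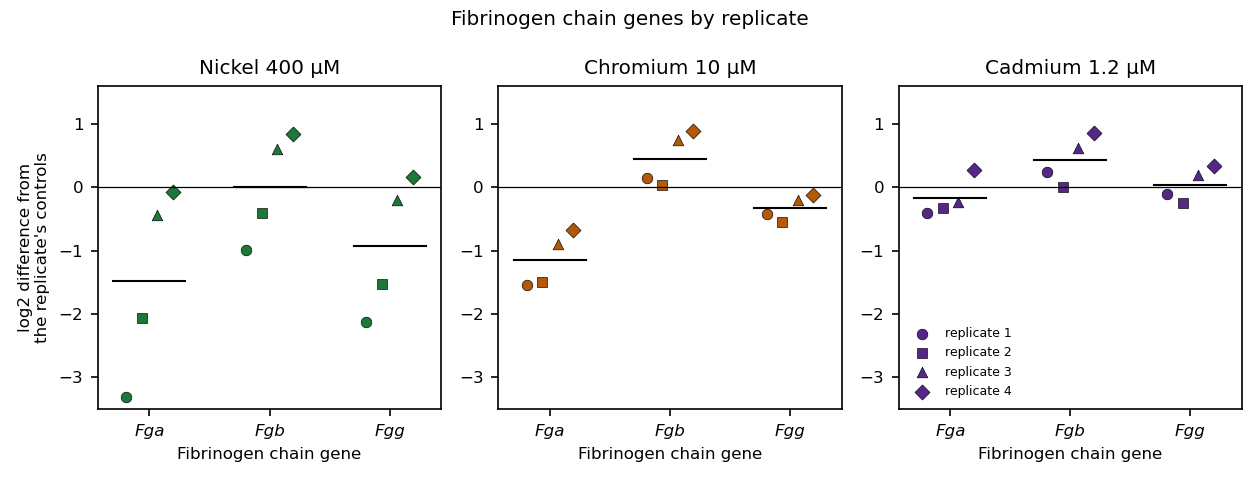
Log2 difference from the replicate's own controls (y axis) of the 3 fibrinogen chain genes (x axis) at the highest concentration of each metal; shapes mark replicates and bars their mean. With chromium all 4 values of Fga lie below 0 and all 4 of Fgb above it, while with nickel every gene has its lower values in replicates 1 and 2.

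Promoter sequence is shown for the genes whose neighbours or relatives moved apart, namely Fga against Fgb and C3 against C5. RefSeq gave a promoter for 32 of 42 members (GRCr8), with no entry for Serping1, Masp2, C1s, C8g, Cpb2, Serpind1, Cfb, F3, C2 and C9. The 250 bases before the start site were searched on both strands for letters linked to 3 liver factors, GTTAAT for HNF1, TTGCNNAA for C/EBP and CAAAGTCCA for HNF4. GTTAAT was found in 10 of 32 member promoters (31.2%) and in 6.45% of all 33469 promoters. TTGCNNAA was found in 12 (37.5%) and in 9.22% of all, and CAAAGTCCA in 0, against 0.338% of all. Fga and Fgb each held both of the first motifs, C5 held GTTAAT at 2 places and C3 held TTGCNNAA at 1. Matches are descriptions of letters, and whether a factor binds there was not measured. The windows lie at chr2:170671919-170672168, chr2:170700876-170701125, chr9:2201340-2201589 and chr3:38759469-38759718, of which Fga is on the plus strand and the others on the minus strand. Capitals mark the matches, read 5′ to 3′ on the gene's strand.
Fga: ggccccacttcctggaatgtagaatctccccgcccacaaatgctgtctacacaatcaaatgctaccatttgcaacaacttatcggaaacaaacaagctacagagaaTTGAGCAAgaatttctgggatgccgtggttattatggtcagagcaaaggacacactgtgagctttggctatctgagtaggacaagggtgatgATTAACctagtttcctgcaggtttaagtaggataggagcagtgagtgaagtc
Fgb: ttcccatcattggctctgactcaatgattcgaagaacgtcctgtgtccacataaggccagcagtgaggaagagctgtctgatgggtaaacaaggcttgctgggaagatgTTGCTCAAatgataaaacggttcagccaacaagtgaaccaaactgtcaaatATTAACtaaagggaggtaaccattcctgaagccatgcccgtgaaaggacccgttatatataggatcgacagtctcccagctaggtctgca
C3: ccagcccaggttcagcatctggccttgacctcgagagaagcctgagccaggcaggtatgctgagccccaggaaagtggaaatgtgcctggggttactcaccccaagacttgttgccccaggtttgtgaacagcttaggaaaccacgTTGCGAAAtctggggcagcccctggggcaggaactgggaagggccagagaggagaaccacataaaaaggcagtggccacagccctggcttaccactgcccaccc
C5: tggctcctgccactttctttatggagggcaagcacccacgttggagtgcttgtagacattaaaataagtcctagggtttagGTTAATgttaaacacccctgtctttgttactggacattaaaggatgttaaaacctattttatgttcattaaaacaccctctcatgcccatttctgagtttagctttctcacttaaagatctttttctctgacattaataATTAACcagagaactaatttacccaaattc

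Of 4 tested anticoagulant genes, 3 (Serpind1, Proc, Serpinc1) fell with all 3 metals. Serpind1, heparin cofactor II, an inhibitor of thrombin, had a wide control range, from 6.87 to 8.23 with a median of 7.54. With 400 µM nickel it was 5.31, 5.39, 6.29 and 6.68, and with 1.2 µM cadmium 6.10, 6.21, 5.96 and 6.51, below all controls in both. It changed by -1.60 ± 0.35 (SE; 3.04-fold lower, adjusted p = 0.0027) with nickel, -1.32 ± 0.19 (adjusted p = 0.00015) with cadmium and -1.11 ± 0.13 (adjusted p = 1.7e-05) with chromium. Proc, the precursor of activated protein C, fell with changes of -0.90 ± 0.27, -0.86 ± 0.12 and -0.47 ± 0.07 in the same order, and Serpinc1, antithrombin, with -0.50 ± 0.19, -0.48 ± 0.07 and -0.71 ± 0.07. The nickel calls of Proc and Serpinc1 were lost without replicate 1 or 2. That of Serpinc1 was also lost without the replicate block or the filter on low values. It was lost too with array medians subtracted, and with an intensity trend and robust prior. Pros1, the cofactor of protein C, changed little, at -0.19 ± 0.07 with nickel, -0.23 ± 0.06 with chromium and -0.03 ± 0.07 with cadmium, of which the first 2 were called. The nickel call was lost in 8 of 16 alternatives, among them leaving out any 1 replicate and the fit without the replicate block, and the chromium call was lost without replicate 1.

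Plg, the precursor of plasmin, had the largest fall with cadmium. In controls its level ran from 9.99 to 10.91 with a median of 10.25. It was 8.15, 8.46, 9.11 and 9.12 with 1.2 µM cadmium and 8.81, 8.65, 9.23 and 9.25 with 10 µM chromium, below all controls. The changes were -1.65 ± 0.11 (SE; 3.14-fold lower, adjusted p = 2.7e-07) and -1.38 ± 0.08 (adjusted p = 1.4e-07), and at 0.55 µM cadmium it already fell by 0.67 ± 0.11 (adjusted p = 0.004). With nickel it changed by -0.37 ± 0.19 (adjusted p = 0.14), with 8.91 and 9.49 in replicates 1 and 2 and 10.90 and 10.66, inside the control range, in replicates 3 and 4. On arrays with 1 condition by both readings Plg fell with nickel (-0.84, adjusted p = 0.0038). Serpinf2, the main inhibitor of plasmin, changed by -0.45 ± 0.16 with nickel, -0.84 ± 0.06 with chromium and -0.45 ± 0.09 with cadmium. Cpb2, a carboxypeptidase that protects fibrin, changed by -0.48 ± 0.16, -0.60 ± 0.06 and -0.55 ± 0.08. All 6 changes were called, and both nickel calls were lost without replicate 1 or 2 and without the replicate block. That of Serpinf2 was also lost with only the second control array of each replicate.

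**Figure D5:**
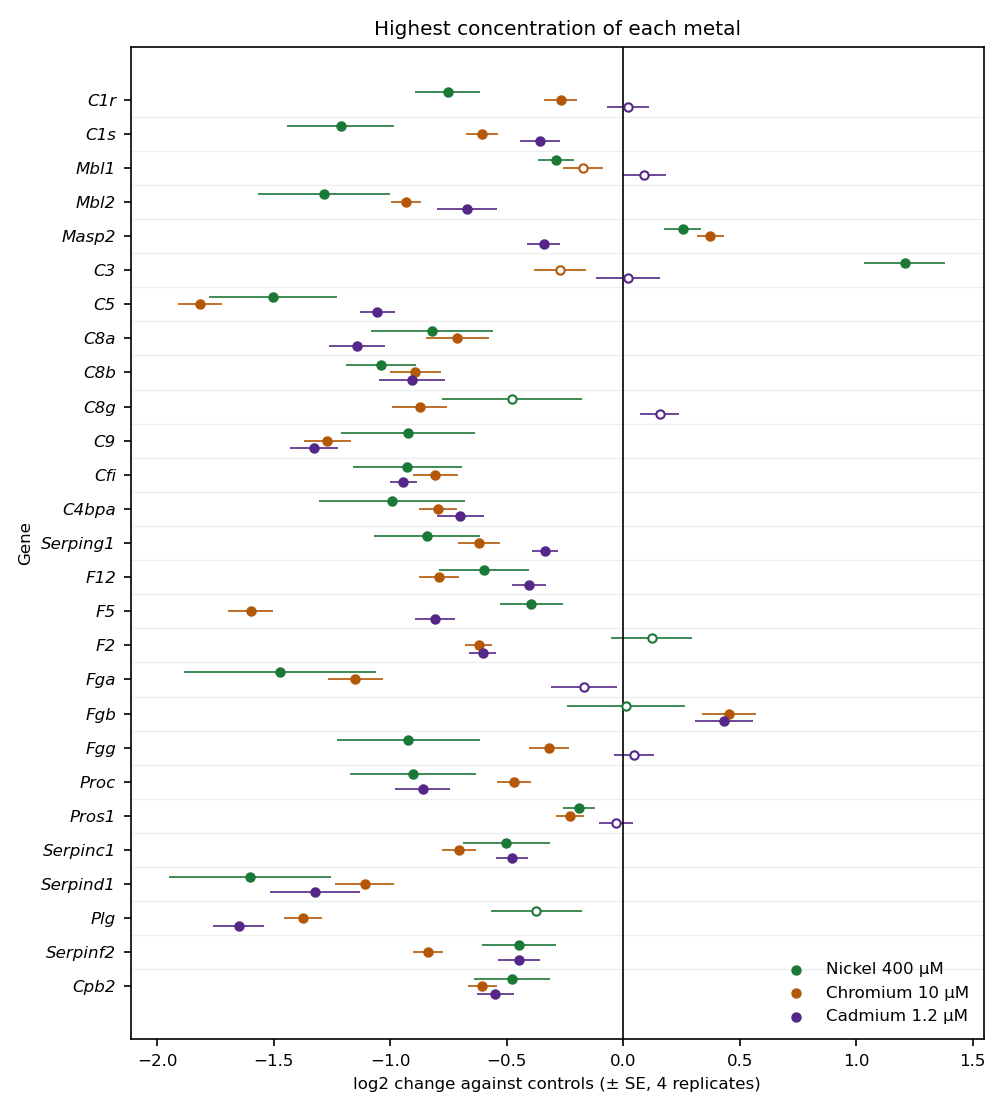
Log2 change against controls with its SE (x axis) of the 27 tested members (y axis, ordered by role) at the highest concentration of each metal; filled points have an adjusted p under 0.05. Bars are widest for nickel, and the colours separate most for C3, F5, Plg, Fga and C8g.

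Across metals, 16 of 27 members were lower at the high concentration of all 3, 6 at that of 2 (C1r, F2, Fga, Fgg, Plg, Pros1) and 3 at that of 1 (C8g, Masp2, Mbl1), against 2.59%, 9.33% and 23.6% of all tested probe sets, while C3 and Fgb were lower in none. The controls are the same in all 3 comparisons, so these calls are not independent of each other. Differences between metals were therefore tested directly in a fit of all conditions. Nickel was higher than chromium for 5 members (C3, F5, Plg, F2, Serpinf2) and lower for 4 (C1s, Fgg, C1r, Fgb), against 22.9% and 21.7% of all probe sets. Nickel was higher than cadmium for 5 (Plg, C3, F2, Masp2, F5) and lower for 8 (Fga, Fgg, C1s, C1r, C8g, Mbl2, Serping1, Mbl1), against 20.3% and 24.7%. Chromium was higher than cadmium for 1 (Masp2) and lower for 9 (C8g, Fga, F5, C5, Serpinf2, F12, C1r, Mbl1, Pros1), against 19.3% and 24.2%. These counts lay close to the shares of all probe sets, apart from the 1 member that was higher with chromium than with cadmium.

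C3 was higher with nickel than with either other metal, by 1.48 ± 0.15 (SE) against chromium (adjusted p = 1.4e-09) and 1.19 ± 0.15 against cadmium (adjusted p = 1.3e-07). F5 was 1.20 ± 0.13 lower on the log2 scale with chromium than with nickel (adjusted p = 4.1e-09). Plg was 1.28 ± 0.16 higher with nickel than with cadmium (adjusted p = 7.9e-08), and the difference of nickel minus cadmium was -1.30 ± 0.30 for Fga (adjusted p = 0.00054). For C8g the difference of chromium minus cadmium was -1.03 ± 0.22 (adjusted p = 0.00028). For 9 members (C4bpa, C8a, C8b, C9, Cfi, Cpb2, Proc, Serpinc1, Serpind1) 0 of 3 differences were called. This fit takes 1 spread per gene over all conditions, so the unequal nickel replicates also widen the SE and interval of the differences between chromium and cadmium. For C8b the 95% interval of the difference between chromium and cadmium was 0.01 ± 0.27, and for Serpind1 between nickel and chromium -0.49 ± 0.55.

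The counts against nickel moved with its replicates. Members lower in nickel than in chromium numbered 0 without replicate 1, 1 without replicate 2 and 7 without replicate 3, and 10 without the repeated arrays, while those higher in nickel numbered 9 without replicate 1. Members lower in nickel than in cadmium numbered 5 without replicate 1 or 2 and 13 without the repeated arrays. Members lower in chromium than in cadmium numbered 5 without replicate 2 or 4.

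Below the filter lay 9 members, with mean log2 levels of 5.73 for C4bpb, 4.92 for C6, 3.99 for Cfd, 4.11 for F3, 4.72 for F9, 5.96 for F10, 3.98 for Klkb1, 5.60 for Masp1 and 5.50 for Vtn. Tested without the filter, F10, the protease that makes thrombin, fell with chromium (-1.03 ± 0.08, SE), cadmium (-0.69 ± 0.09) and nickel (-0.64 ± 0.13), and its mean level was just under the limit of 5.97. Vtn, vitronectin, which stabilises an inhibitor of fibrinolysis, fell in the same order (-0.80 ± 0.16, -0.88 ± 0.15 and -0.75 ± 0.26). The nickel fall of Vtn had an adjusted p of 0.049 in limma. Its nickel differences were -1.53 and -1.42 in replicates 1 and 2 and -0.18 and 0.14 in replicates 3 and 4. Those of F10 were -1.15, -0.97, -0.32 and -0.13 in replicates 1 to 4. F3, tissue factor, the trigger of clotting, rose by 0.50 ± 0.09 with cadmium and 0.30 ± 0.08 with nickel, and the other 6 were called with 0 of the 3 metals. The probe set shared by 3 kininogen genes, carriers of bradykinin, moved apart between metals. Its level ran from 8.45 to 9.84 in controls, was 9.80, 10.08, 10.16 and 10.40 with 400 µM nickel and 8.18, 7.96, 7.96 and 7.66 with 10 µM chromium. It rose by 0.74 ± 0.24 (adjusted p = 0.026) with nickel and fell with chromium (-1.43 ± 0.12, adjusted p = 2.2e-06). Within replicates 1 to 4 the nickel rise was 0.20, 0.29, 0.95 and 1.49. It was thus largest in replicates 3 and 4, whose arrays carry other conditions in their labels. Probe sets shared by several genes were not run through the alternatives. The 3 tested probe sets that name both C2 and Cfb, the proteases of the C3 convertases, rose with 1.2 µM cadmium, by 0.63, 0.65 and 0.74, and fell with 10 µM chromium (-0.36, -0.30 and -0.49), with no overlap with controls in either.

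Genes of these pathways outside the list were followed too. Of 3 tested complement genes outside the list, 0 were called with nickel, 2 fell with chromium and 2 rose with cadmium. Clu, clusterin, which blocks pore assembly, rose by 2.25 ± 0.07 (SE) with 1.2 µM cadmium (adjusted p = 5.2e-10) and fell with chromium (-0.36 ± 0.09), and Cr1l, a membrane regulator, changed by 0.58 ± 0.06 and -0.25 ± 0.07. Of 7 other clotting and fibrinolysis genes, 1 rose and 3 fell with nickel, 2 rose and 2 fell with chromium, and 4 rose and 2 fell with cadmium. Plat, tissue plasminogen activator, rose by 1.88 ± 0.09 with cadmium and 0.42 ± 0.13 with chromium. Anxa2, a receptor for Plat and Plg, rose with nickel, cadmium and chromium by 1.51 ± 0.18, 1.71 ± 0.08 and 0.36 ± 0.08. Procr, the receptor for protein C, rose by 1.17 ± 0.10 with cadmium.

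The 6 genes that modify or export clotting factors were mixed, with 2 higher and 2 lower with nickel, 0 and 3 with chromium and 2 and 3 with cadmium. Vkorc1, which recycles vitamin K, changed by -0.57 ± 0.08 (SE) with chromium and -0.62 ± 0.08 with cadmium, while its relative Vkorc1l1 rose by 0.64 ± 0.08 with cadmium. Furin, a convertase that cleaves precursors of several factors, changed by -0.66 ± 0.14 with chromium. Of 10 tested acute-phase genes, 5, 7 and 5 fell and 2, 0 and 1 rose with nickel, chromium and cadmium. With chromium Itih4 changed by -2.32 ± 0.23, Serpina3n by -1.69 ± 0.18 and A2m, a broad protease inhibitor, by -0.92 ± 0.21. Of 8 tested liver transcription factors, 5, 5 and 2 fell and 1, 0 and 1 rose in the same order. Creb3l3 changed by -0.98 ± 0.09 and Onecut1 by -0.71 ± 0.12 with chromium, and Nr1h4, the bile acid receptor, by -0.78 ± 0.13 with nickel. Hnf4a, a nuclear receptor of hepatocytes, fell with nickel, chromium and cadmium (-0.70 ± 0.24, -0.59 ± 0.07 and -0.30 ± 0.07). Cebpb rose with nickel (0.48 ± 0.14) and cadmium (0.53 ± 0.14) and was not called with chromium (0.15 ± 0.17). Cebpa was not called with nickel, chromium or cadmium. The median log2 changes of these lists, for nickel, chromium and cadmium, were -0.11, -0.25 and 0.58 for other complement genes, 0.05, 0.10 and 0.20 for other clotting genes, -0.10, -0.28 and -0.15 for maturation genes, -0.25, -0.55 and -0.26 for acute-phase genes, and -0.50, -0.44 and -0.15 for liver factors.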

How the data were processed

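RNA of exposed and control cultures was hybridised to 36 and 8 Affymetrix Rat Genome arrays. Whether the control arrays of a replicate came from separate cultures was not stated. Deposited values are on a log2 scale and came from RMA, run by the authors in Partek per the methods and the submitters' processing notes. Gene names came from the platform annotation, in which 20832 probe sets name 1 gene, 436 several and 9831 none. Members, lists, rules and tests were chosen with earlier results of these data known.

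Conditions follow the order of the sample titles, and labels as given were an alternative. In place of the methods' filter on detection calls, probe sets needed a mean over the 44 arrays of at least 5.97, the median of all values, which kept 15547 of 31099 probe sets. Each gene was represented by its probe set of highest mean level.

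The 2 control arrays of a replicate were averaged, and a model of concentration plus replicate was fitted to each metal (R 4.3.3, limma 3.58.1). P-values were adjusted by Benjamini-Hochberg over all tested probe sets, at 0.05. Differences between metals came from 1 fit of all 10 conditions. Replicate number was the block because exposures share controls within a biological replicate. The methods fit a batch tied to experiment and processing dates, and whether it equals the replicate number was not shown. As a check of pairing, deviations from the condition means correlated with a median of 0.5 between arrays of the same replicate number (from -0.3 to 0.809 over 216 pairs) and -0.284 between others. The fit was tested on simulated data. Where 200 of 15547 probe sets had been changed, it recovered 89% of 1.5-fold changes with 400 µM nickel, 87% with 10 µM chromium and 92% with 1.2 µM cadmium. The simulated noise had 1 spread per probe set and no differences between replicates, and far fewer probe sets were changed than were called in the data. It therefore cannot tell how reliable the nickel calls are, where replicates were unequal. The number of arrays limits the precision.

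Array values are given for the called members with the up to 4 largest falls and 4 largest rises at each metal's high concentration. From each of the other lists, the genes with the up to 3 largest called changes are named with their log2 changes. C8b, Fgg, Hnf4a, Cebpb, Cebpa and the probe sets shared by several genes were added after their values were seen. In all, 17 alternatives were run, of which leaving out the Control 2 array of replicate 4 was chosen after seeing the data. Promoters are from RefSeq. Tables were made with Python 3.11.15.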

Additional observations from a re-analysis of the deposited data

Results flagged for a closer look

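Among 28 groups of array values of the members with the largest changes, 3 had a lowest or highest array that stood apart from the rest of its group by Dixon's criterion, where chance gives about 1 group in 20. All 3 were the second control array of replicate 4, which was the lowest of the 8 controls for C3 at a log2 level of 8.46, for C9 at 7.04 and for Fgb at 9.43. Over all tested probe sets its median R2 with the other controls was 0.9661, and its highest R2 with any array, 0.985, was with 140 µM nickel in replicate 3. Without it, C3 rose by 1.11 with 400 µM nickel, C9 fell by 1.36 with 10 µM chromium and 1.42 with 1.2 µM cadmium, and Fgb rose by 0.38 with chromium and 0.36 with cadmium, all still with an adjusted p under 0.05 in limma.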

How the results depend on the processing

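Across the 16 alternatives other than labels as given, no called member changed sign at the high concentrations, and 7 of 23 nickel calls, 20 of 25 chromium calls and 17 of 20 cadmium calls held in all of them. With labels as given, 0 members were lower or higher with 400 µM nickel, 10 µM chromium or 1.2 µM cadmium, 0 changed at 0.55 µM cadmium, 0 met the stricter criterion, and 0 differed between metals apart from 1 lower with nickel than with chromium. On arrays with 1 condition by both readings (3 residual degrees of freedom for nickel and chromium, 1 for cadmium), the criterion kept 8 members for nickel and 1 for cadmium, and 1 member rose with nickel and 1 with chromium; differences between metals were not run there. Without the replicate block the criterion kept 0, 5 and 5 members for nickel, chromium and cadmium, 1 member rose with nickel, 15 fell, and 1 changed at 0.55 µM cadmium. Without the repeated arrays the criterion kept 1 for nickel, 1 rose with nickel, 10 were lower with nickel than with chromium, 13 lower with nickel than with cadmium, 2 higher with chromium than with cadmium, and 1 changed at 1 µM chromium. The nickel criterion count was 1 with Control 2 arrays alone, 4 with 8 separate controls and 1 with an intensity trend and robust prior. With Control 2 arrays alone 3 members changed at 0.55 µM cadmium. At 1 µM chromium 1 changed with 8 separate controls, and at 0.2 µM cadmium 1 changed with Control 1 arrays alone and 1 without the Control 2 array of replicate 4, an alternative chosen after seeing the data, under which the criterion kept 12 for chromium. With no filter on low values 2 rose with 1.2 µM cadmium.

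Leaving out each replicate in turn, members meeting the criterion numbered 0 to 0 for nickel, 5 to 11 for chromium and 4 to 7 for cadmium. Members higher numbered 1 to 2 with nickel, 1 to 2 with chromium and 0 to 1 with cadmium, and those lower 6 to 20, 21 to 24 and 19 to 19. Those higher with nickel than with chromium numbered 4 to 9 and those lower 0 to 7. Those lower with nickel than with cadmium numbered 5 to 10, those lower with chromium than with cadmium 5 to 7, and those changed at 0.55 µM cadmium 2 to 5. The cause of these differences was not tested, beyond there being fewer arrays in each.

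Limits are the 4 replicates of 1 cell line, the condition of 22 arrays, and probe sets near background, where 9 members could not be tested under the filter.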
